A study of Mus musculus with 40 samples.

Results

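The enzymes described here lengthen and desaturate fatty acids, and they were followed in 2 tissues of pregnant mice, the myometrium (the muscle layer of the uterus) and the cervix. The 10 genes, chosen by name from the 23079 rows of the deposited count table, encode 6 elongases (Elovl1, Elovl3, Elovl4, Elovl5, Elovl6 and Elovl7) and 4 desaturases (Scd1, Scd2, Fads1 and Fads2), and the count table holds a row for each. The mice were C57BL/6, an inbred laboratory strain, with no genetic change named in the labels, and tissue was taken at 18.5 days post coitum, close to delivery. They had received an intraperitoneal dose of human chorionic gonadotropin (hCG), which is made by the placenta and binds the receptor of luteinizing hormone, or of phosphate-buffered saline (PBS) as control, at a concentration and an interval not given in the sources used here. The 40 libraries of total RNA form 4 groups of 10: cervix with hCG, cervix with PBS, myometrium with hCG and myometrium with PBS. The labels do not say whether libraries with the same number came from one animal, or that libraries of a group came from separate animals, so p-values measure only the spread between these libraries.

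A fatty acid made by fatty acid synthase is lengthened in the endoplasmic reticulum by a cycle whose first and chain-selecting step is carried out by an ELOVL elongase. Elovl6 lengthens palmitate towards stearate, the stearoyl-CoA desaturases Scd1 and Scd2 turn stearate into oleate, and Elovl5, Fads2 and Fads1 convert dietary linoleate into arachidonate, the precursor of the prostaglandins that act in labour. Elovl1, Elovl3, Elovl4 and Elovl7 build the very long chains of sphingolipids and neutral lipids, and the longest chains, made by Elovl4, go into the ceramides that seal stratified epithelia such as skin.

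On GRCm38.p6 the desaturases lie on chromosome 19, with Fads2 (identifier 56473) from 10062765 to 10101503, Fads1 (76267) from 10182877 to 10196874, Scd2 (20250) from 44293676 to 44306864 and Scd1 (20249) from 44394450 to 44407709. Elovl3 (12686) lies on the same chromosome from 46131897 to 46135694. Elovl5 (68801) and Elovl4 (83603) lie on chromosome 9, from 77917365 to 77984519 and from 83778692 to 83806305. Elovl6 (170439) lies on chromosome 3 from 129532386 to 129638495, Elovl1 (54325) on chromosome 4 from 118426874 to 118432953 and Elovl7 (74559) on chromosome 13 from 108214326 to 108287109. All are protein-coding. The strand used in counting is not given in the sources used here, so reads from bases shared with another gene cannot be told apart. Exons of Elovl1 share 53 bases (1.9%) with Cdc20, those of Scd2 share 61 bases (1.1%) with Mir5114, and those of Elovl3 and Elovl6 share 0.5% each with Pitx3 and the antisense gene Gm35986.

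The sequences before the transcription start are shown for Elovl1, whose level passed the test in cervix, and for Elovl4 and Elovl7, which also act on very long chains. RefSeq start sites on GRCm38.p6 were matched for 6 of the 10 genes. Each run below is the 250 bases before the start, from 5′ to 3′ on the gene's strand, with capitals for the letters of a GC box (GGGCGG or its complement CCGCCC) or a CCAAT box (CCAAT or its complement ATTGG). The windows are chr4:118427843-118428092 on the forward strand for Elovl1, inside the gene's annotated interval and before the first of 2 RefSeq starts, chr9:83806306-83806555 on the reverse strand for Elovl4 and chr13:108214154-108214403 on the forward strand for Elovl7. The end of the Elovl7 window also lies inside that gene's interval, which starts at 108214326. The windows hold no exon base annotated in GENCODE M21, the only annotation checked for this.
Elovl1: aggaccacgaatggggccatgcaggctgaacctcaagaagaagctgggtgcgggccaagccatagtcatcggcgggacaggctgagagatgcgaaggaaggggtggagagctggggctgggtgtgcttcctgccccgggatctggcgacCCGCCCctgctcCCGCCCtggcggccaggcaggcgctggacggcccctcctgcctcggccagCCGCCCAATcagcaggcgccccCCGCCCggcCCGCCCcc
Elovl4: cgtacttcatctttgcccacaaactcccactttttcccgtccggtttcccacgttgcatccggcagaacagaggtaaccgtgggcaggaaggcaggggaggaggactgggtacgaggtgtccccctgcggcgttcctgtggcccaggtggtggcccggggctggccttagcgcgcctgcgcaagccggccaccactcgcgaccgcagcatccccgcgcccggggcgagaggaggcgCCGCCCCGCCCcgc
Elovl7: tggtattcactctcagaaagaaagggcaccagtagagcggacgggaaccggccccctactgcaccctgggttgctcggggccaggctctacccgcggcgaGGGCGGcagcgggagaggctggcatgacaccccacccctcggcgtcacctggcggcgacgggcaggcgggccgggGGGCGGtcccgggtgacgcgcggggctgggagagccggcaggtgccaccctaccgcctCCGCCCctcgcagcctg
The Elovl1 window held 5 GC boxes and 1 CCAAT box, which shares 2 bases with the GC box before it. Elovl4 held 2 GC boxes that share 1 base, and Elovl7 held 3 GC boxes. GC boxes occurred in 32.7% of 32851 RefSeq promoters of the same length and CCAAT boxes in 33.8%. The 3 windows were 72.0%, 69.6% and 73.6% G and C, against a median of 52.4% over all promoters. The letters TCACNCCAC of a sterol regulatory element, present in 1.05% of promoters on either strand, were in none of the 7 windows of the 6 genes, and TATAAA, present in 12.4%, was in none of them either. These matches describe letters in the windows only.

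Total counts ran from 5449239 to 25028360 per library. In cervix, sequencing depth split the libraries evenly: 10 had 16613261 counts or more (hCG 1 to 6, PBS 1 to 4; the deeper libraries) and 10 had at most 11602678 (the shallower libraries). Levels are CPM, counts scaled to the library total after TMM adjustment. A count of 0 allows a level of up to 0.12 CPM at the greatest depth and 0.551 CPM at the lowest, for counting error only. Cell markers followed the tissue labels: the summed level of 14 squamous epithelium markers was 1834 to 66663 CPM in cervix and 105.4 to 255.7 CPM in myometrium. The cervix hCG library 5 stood apart, with the lowest squamous level, a smooth muscle marker level of 25616 CPM, within the range of the myometrium (11979 to 28606 CPM), and urothelium markers at 2305 CPM. Urothelium markers were also high in hCG libraries 3 (626.4 CPM) and R3 (187.9 CPM) against at most 61.3 CPM in PBS cervix. All 5 of them were called higher with hCG in cervix, where 8.91% of all genes were called in either direction. The medians of their sum were nevertheless close, 18.5 CPM with hCG and 18.0 CPM with PBS, so the high levels lay in few libraries. In hCG library 1 skeletal muscle markers reached 6054 CPM against at most 258.5 CPM in PBS cervix, and in hCG libraries 1, 3 and 5 adipocyte markers reached 2847 to 5151 CPM. Lars2, a nuclear gene for a mitochondrial tRNA synthetase, took 3.51% to 17.5% of counts in PBS cervix libraries 5 to 8 and 4.61% to 5.63% in myometrium libraries hCG 3, PBS 2 and PBS 8. Yolk sac and fetal liver markers ranged from 31.1 to 30455 CPM over the myometrium libraries and were at most 88.6 CPM in cervix. In whole tissue, fewer cells of a type and less RNA per cell cannot be told apart.

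Per length of exon, Scd2 was the most abundant of the 10 transcripts in 3 of the 4 groups. In PBS myometrium it stood at 112.7 ± 26.3 CPM per kilobase (mean ± SD, n = 10 here and below), followed by Elovl5 at 46.2 ± 6.15. Elovl1 (17.3 ± 2.24) and Fads1 (17.0 ± 2.49) came next and differed by less than their SD, as did Scd1 (9.44 ± 1.65) and Fads2 (8.95 ± 2.67). Elovl6 (5.55 ± 0.755) and Elovl7 (4.85 ± 0.886) were lower, Elovl4 stood at 0.55 ± 0.257 and Elovl3 was lowest at 0.0458 ± 0.0692. In PBS cervix the order was led by Scd2 at 157.9 ± 50.7 CPM per kilobase, then Scd1 at 42.5 ± 17.6 and Elovl5 at 38.0 ± 10.3, which differed by less than their SD. Elovl1 followed at 25.2 ± 8.14. Elovl6 (11.3 ± 1.98), Elovl4 (10.8 ± 11), Elovl7 (10.6 ± 4.36), Fads1 (9.91 ± 2.86) and Fads2 (7.63 ± 2.03) lay close together. In cervix with hCG the mean of Scd1, 102.8 ± 134.1 CPM per kilobase, exceeded that of Scd2, 91.9 ± 24.1, by less than the SD of either.

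**Figure D1:**
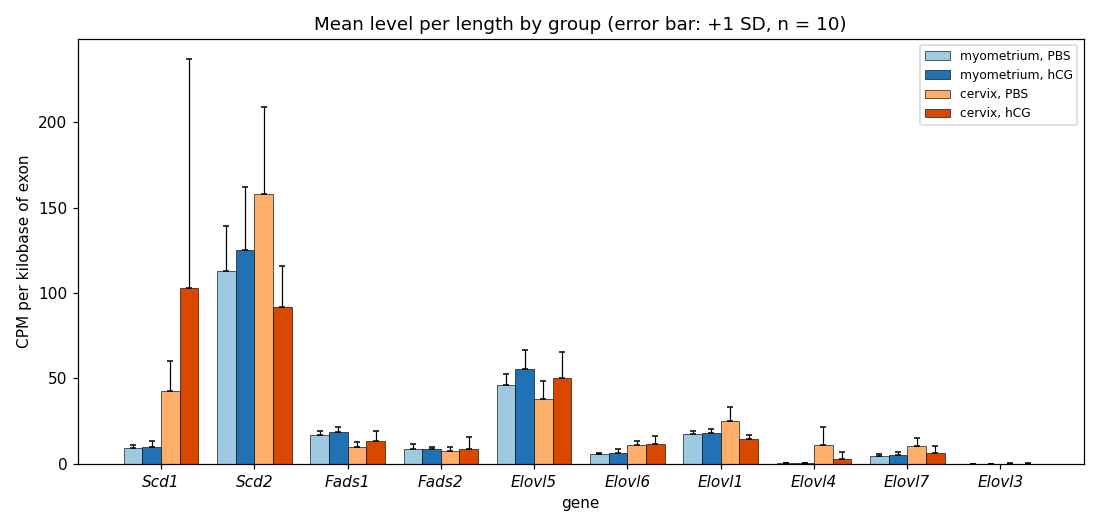
Mean level of each gene per kilobase of exon (vertical axis, CPM per kilobase) in the 4 groups, with bars from 0 and an error bar of 1 SD upwards over 10 libraries. Scd2 is the tallest bar in both myometrium groups and in PBS cervix, and the SD of Scd1 in cervix with hCG (134.1) is larger than its mean (102.8).

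Elovl3, an elongase best known from brown fat and sebaceous glands, was close to absent. It reached 2.03 CPM (48 counts) in cervix hCG library 3, 1.47 CPM (13 counts) in hCG library 9 and 1.12 CPM (25 counts) in PBS library 4, and had at most 7 counts in every other library. It had 0 counts in the other 9 PBS cervix libraries and was below the filter on low counts in every comparison. The other 9 genes passed that filter in each comparison, also within either tissue alone.

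**Figure D2:**
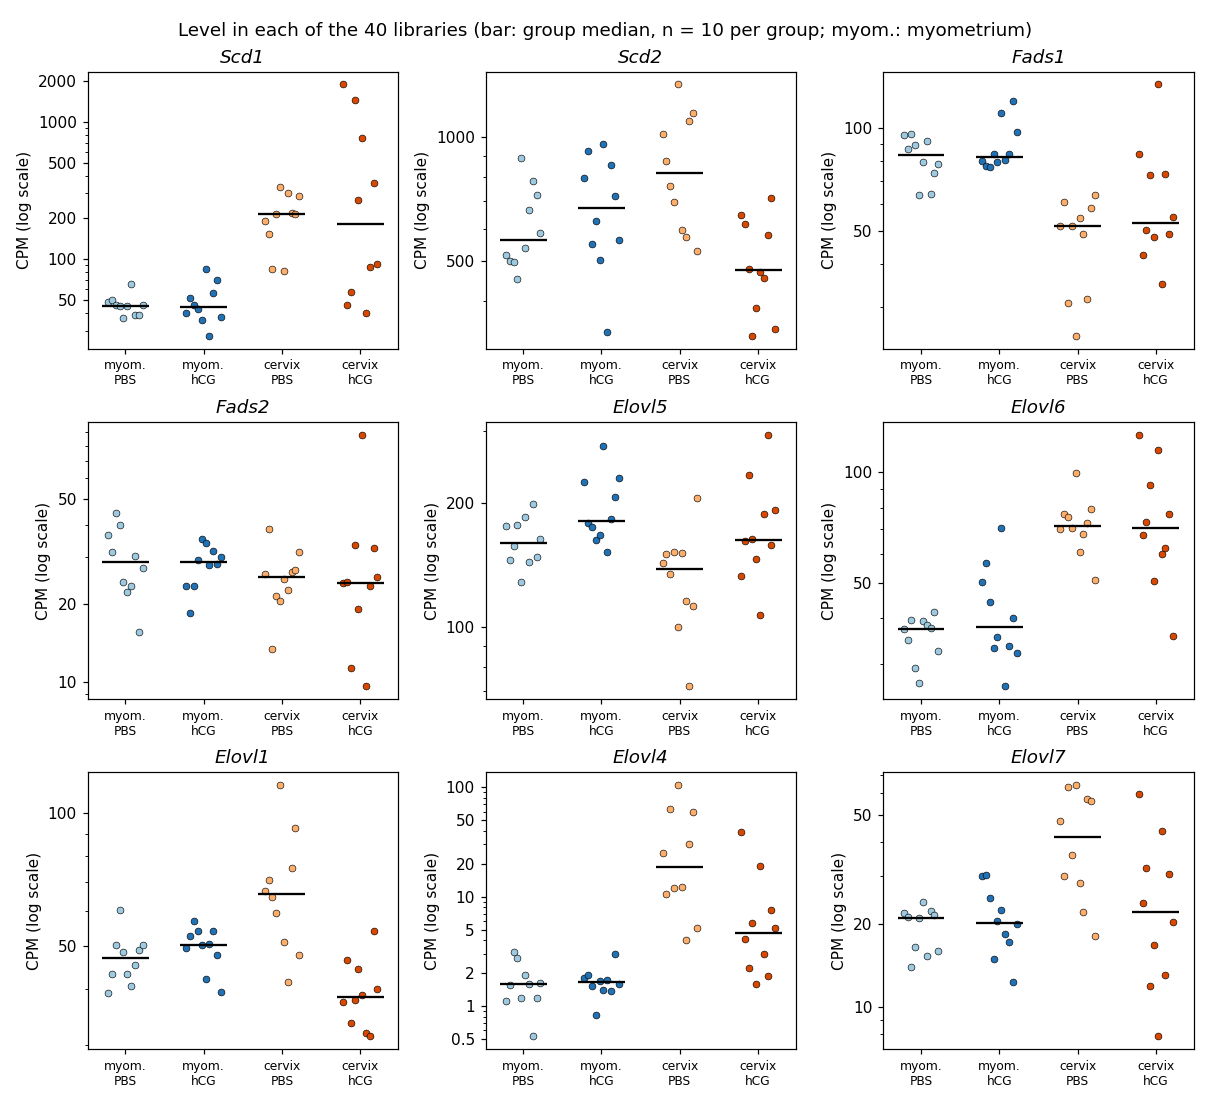
Level of 9 of the genes in each of the 40 libraries (vertical axes, CPM on a log scale; each point 1 library, each bar the median of 10), by tissue and treatment. The points of Elovl1 and Scd2 in cervix lie lower with hCG than with PBS, with some overlap, and Scd1 in cervix spreads from 40.4 to 1872 CPM with hCG.

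The first comparison asked how hCG alters these transcripts in the cervix. Elovl1, the elongase of saturated very long chains, and Scd2, the stearoyl-CoA desaturase known best from brain, were both lower with hCG, by 1.73-fold and 1.71-fold. In edgeR's quasi-likelihood test, with Benjamini-Hochberg adjustment over all 14932 genes tested and a threshold of 0.05, 2 of the 9 tested members passed, both lower, and none passed as higher. Over all genes 8.91% passed and 4.17% passed as lower. The median log2 fold change of the 9 members was 0.08, against 0.007 over all genes tested.

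Elovl1 stood at 31.3, 38.3 and 54.2 CPM (lowest, median and highest of 10) with hCG and at 41.6, 65.8 and 116.0 CPM with PBS. All 10 hCG libraries lay below the PBS median and 7 lay below the lowest PBS library. The means were 39.6 ± 7.16 and 68.6 ± 22.2 CPM, a log2 difference of -0.79 (SE 0.163, edgeR adjusted p = 0.0263).

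Scd2 stood at 329.6, 476.0 and 710.5 CPM with hCG and at 529.8, 819.3 and 1341 CPM with PBS. Here too all 10 hCG libraries lay below the PBS median, and 6 lay below the lowest PBS library. The means were 502.1 ± 131.7 and 863.0 ± 276.9 CPM, a log2 difference of -0.77 (SE 0.193, edgeR adjusted p = 0.0298).

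Both calls held in 16 of 20 fits that each left out 1 library. Without hCG library 3, or without PBS library 4, 7 or 8, neither gene passed, with an edgeR adjusted p of at most 0.0552 for Elovl1 and 0.0633 for Scd2. The sizes moved little, from -0.85 to -0.66 for Elovl1 and from -0.83 to -0.67 for Scd2. In those 4 fits edgeR called 8, 1, 1 and 2 genes in all, against 1331 with every library.

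The hCG libraries 1, 3 and 5, the cervix libraries highest in adipocyte markers, were also left out together. Elovl1 then differed by -0.75 (SE 0.19, edgeR adjusted p = 0.0833) and Scd2 by -0.75 (SE 0.209, adjusted p = 0.0921). In that fit 0 genes passed (5 members at an unadjusted p under 0.05). Without PBS libraries 5 to 8 the differences were -0.85 (SE 0.173, adjusted p = 0.0639) and -0.80 (SE 0.213, adjusted p = 0.0702). Within the deeper libraries, 6 with hCG and 4 with PBS, both genes differed by -1.06, with edgeR adjusted p = 0.0457 for Elovl1 and 0.054 for Scd2. Within the shallower ones, 4 and 6, they differed by -0.54 (SE 0.241) and -0.51 (SE 0.286), with an adjusted p of 0.799 each.

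Elovl4, which makes the longest acyl chains, had the largest difference of the 9 genes in size. It stood at 1.60, 4.66 and 38.9 CPM with hCG and at 3.98, 18.7 and 105.3 CPM with PBS. Of the hCG libraries 8 lay below the PBS median and 4 below the lowest PBS library, while hCG libraries 1 (38.9 CPM) and 5 (19.1 CPM) lay above it. The log2 difference was -1.86 (SE 0.66) and did not pass (edgeR adjusted p = 0.0726), but DESeq2 gave -1.87 (adjusted p = 0.033) and limma voom with quality weights gave -2.20 (adjusted p = 0.0433). Without hCG library 1 or PBS library R3 it also passed with edgeR, and over 20 fits without 1 library it ran from -2.53 to -1.44. Without hCG libraries 1, 3 and 5 together it was -3.19 (SE 0.648, edgeR adjusted p = 0.0725). Libraries 1 and 5 held the highest hCG values of Elovl4, so leaving them out enlarges the difference by construction.

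Elovl7, another elongase of saturated chains, stood at 7.81, 22.2 and 59.9 CPM with hCG and 18.1, 41.7 and 64.5 CPM with PBS, with 8 hCG libraries below the PBS median. Its log2 difference was -0.69 (SE 0.328, edgeR adjusted p = 0.163).

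Squamous epithelium markers stood lower in the hCG libraries, as these 4 genes did. The summed level of the 14 squamous markers was 1834, 8067 and 18641 CPM (lowest, median and highest) with hCG and 11800, 24258 and 66663 CPM with PBS, and 3 of the 14 markers passed as lower and none as higher. Krt5 and Trp63, basal cell markers, were at 0 in no cervix library. PBS library 4, the highest in squamous markers, was also the highest PBS library for Elovl1, Elovl4, Elovl6, Elovl7, Scd1 and Scd2 and the lowest for Fads1. PBS libraries 6 and R3, the lowest in squamous markers, were the 2 lowest PBS libraries for Elovl1, Elovl4, Elovl7 and Scd2. With hCG the order was looser: library 5 had the lowest squamous level and the second highest Elovl4. Columnar epithelium markers gave 0 calls of 6 in edgeR, with a median log2 difference of -0.25. Their summed level also stood lower with hCG, at 1326.7, 5658.6 and 14036.5 CPM against 5410.5, 12360 and 16435.6 CPM with PBS. The mucin gene Muc5b dominated that sum, at a mean of 3999.6 CPM over the 40 libraries, so the sum says little about the other markers. Neutrophil markers were higher with hCG for 3 of 5 and lower for none, with summed levels of 5.41, 55.2 and 225.9 CPM against 6.18, 13.2 and 22.0 CPM with PBS. Beside these marker counts, 8.91% of all genes passed in either direction. The part of the squamous lining, of columnar epithelium and of neutrophils in these differences was not tested.

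**Figure D3:**
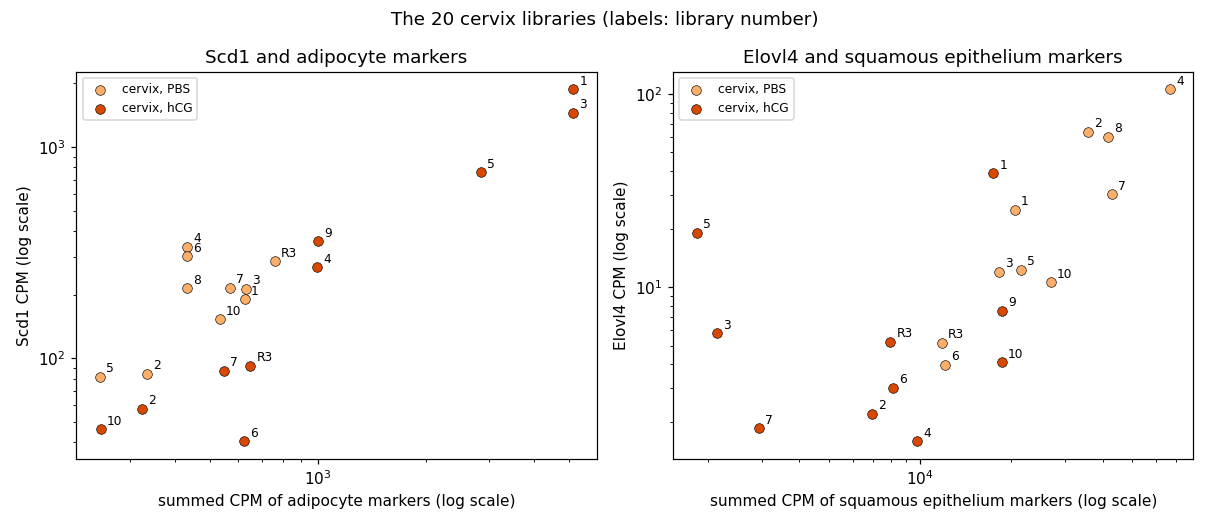
Scd1 against the summed level of 11 adipocyte markers (left) and Elovl4 against that of 14 squamous epithelium markers (right) in the 20 cervix libraries, in CPM on log axes, each point 1 library with its number. The hCG libraries 1, 3 and 5 are highest in both adipocyte markers and Scd1, and PBS library 4 is highest in both squamous markers and Elovl4, while hCG libraries 1 and 5 have more Elovl4 than other hCG libraries.

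Scd1, the sister enzyme of Scd2 and the main desaturase of fat and liver, split the hCG libraries. It stood at 40.4, 180.7 and 1872 CPM with hCG and at 81.6, 213.4 and 336.7 CPM with PBS. In hCG libraries 1, 3, 5 and 9, at 1872, 1448, 759.0 and 358.2 CPM, it was above every PBS library, and in hCG libraries 6, 10 and 2, at 40.4, 46.1 and 57.5 CPM, it was below every PBS library. The medians were therefore closer than the means, 503.0 ± 655.9 and 207.9 ± 86.2 CPM. The log2 difference of 1.29 (SE 0.631) did not pass (edgeR adjusted p = 0.177). It was 0.02 with limma voom and 0.77 without hCG library 1. Within the shallower libraries it turned to -0.52 (edgeR adjusted p = 0.857), and without hCG libraries 1, 3 and 5 to -0.60 (adjusted p = 0.476). Those were the hCG libraries with the most Scd1, so leaving them out lowers the difference by construction and does not test its direction.

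Adipocyte markers followed the same libraries. Their summed level was 249.0, 822.8 and 5151 CPM with hCG and 247.5, 483.7 and 760.5 CPM with PBS. The 5 hCG libraries with the most adipocyte marker RNA (3, 1, 5, 9 and 4) were the 5 with the most Scd1. Of the 11 markers 1 passed as higher with hCG and none as lower, and Adipoq, which encodes adiponectin, was at 0 in no cervix library (0.424 to 368.2 CPM with hCG, 3.85 to 38.2 CPM with PBS). The summed sebaceous gland level did not move this way, at 36.2 to 58.1 CPM with hCG and 34.8 to 57.6 CPM with PBS. Far2 dominated that sum as the highest of the 6 genes (31.0 to 49.9 CPM with hCG, 31.9 to 55.3 CPM with PBS). Awat1 was at 0 in every PBS cervix library and at most 0.0569 CPM with hCG. Mc5r reached 6.90 CPM in hCG library 5, against at most 0.296 CPM with PBS. Awat2 (at most 1.35 CPM with hCG, 1.63 CPM with PBS) and Krt79 (2.11 and 1.99 CPM) had similar highest levels. Ucp1, the uncoupling protein of brown fat, had its highest cervix levels in hCG library 9 (88.7 CPM) and PBS library 4 (11.2 CPM), with medians of 0.0827 and 0 CPM. The part of fat RNA in the level of Scd1 was not tested.

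The balance of the 2 stearoyl-CoA desaturases shifted between libraries. Scd1 made up 7.7%, 29.6% and 83.1% (lowest, median and highest) of the summed Scd1 and Scd2 level per kilobase with hCG, and 11%, 17.6% and 37.7% with PBS. It was the larger of the pair in hCG libraries 3 (83.1%), 1 (76.3%) and 5 (64.2%) and in no other library of either tissue. In myometrium its share was 5.3% to 9.8% with hCG and 4.5% to 10.1% with PBS.

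The enzymes of the polyunsaturated route gave no call in cervix. Elovl5 stood at 107.3, 163.0 and 293.5 CPM with hCG and at 72.0, 138.9 and 206.0 CPM with PBS, with 8 of 10 hCG libraries above the PBS median (log2 0.42, SE 0.174, edgeR adjusted p = 0.114). Fads1, which makes the last desaturation to arachidonate, stood at 34.9, 52.6 and 134.4 CPM with hCG and at 24.6, 51.8 and 63.6 CPM with PBS (log2 0.45, SE 0.222, adjusted p = 0.182). Fads2, which makes the first, stood at 9.67, 24.0 and 88.1 CPM and at 13.4, 25.3 and 38.5 CPM (log2 0.22, SE 0.297, adjusted p = 0.652). The medians of Fads1 and Fads2 were close in the 2 groups, and for both genes the highest value came from hCG library 5. That library had urothelium markers at 2305 CPM, smooth muscle markers at 25616 CPM and adipocyte markers at 2847 CPM. The part of these tissues in its Fads1 and Fads2 levels was not tested. Without hCG libraries 1, 3 and 5, and so without that highest value, the log2 difference of Fads2 was -0.26. Elovl6, the elongase of palmitate, stood at 35.9, 70.3 and 126.8 CPM with hCG and at 50.9, 71.5 and 99.9 CPM with PBS (log2 0.08, SE 0.185, adjusted p = 0.802), and was highest in hCG libraries 1 and 5, followed by PBS library 4.

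In the myometrium no member passed the test between hCG and PBS. By edgeR 0 of 9 passed, where 0.0138% of 14517 genes did, and 1 had an unadjusted p under 0.05. DESeq2 and limma voom also called 0 members, with 1 and 0 at an unadjusted p under 0.05. The median log2 difference of the members was 0.12, against 0.008 over all genes.

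Elovl5 was the gene with the unadjusted p under 0.05 (0.0195). It stood at 152.0, 181.1 and 274.8 CPM with hCG and at 129.2, 160.6 and 199.1 CPM with PBS, and 9 of 10 hCG libraries lay above the PBS median. Its log2 difference was 0.27 (SE 0.106, edgeR adjusted p = 0.215).

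Scd2 stood at 337.3, 672.7 and 963.5 CPM with hCG and at 454.3, 563.7 and 890.1 CPM with PBS (log2 0.15, SE 0.165). Scd1 stood at 27.3, 44.7 and 83.8 CPM and at 37.3, 45.6 and 65.7 CPM (log2 0.09, SE 0.16), and Elovl1 at 39.5, 50.5 and 57.0 CPM and at 39.3, 47.1 and 60.3 CPM (log2 0.08, SE 0.0855). For each of these 3 genes the 2 groups overlapped over most of their range.

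Of the rest, Elovl6 differed by log2 0.24 (SE 0.144), Fads1 and Elovl7 by 0.12 each (SE 0.102 and 0.148), Elovl4 by -0.03 (SE 0.248) and Fads2 by -0.07 (SE 0.155). The adjusted p of these 8 genes ran from 0.443 to 0.975. Within the hCG group library 5 was the highest and library 6 the lowest for Elovl5, Elovl6, Scd1 and Scd2 alike, from 83.8 to 27.3 CPM for Scd1 and from 963.5 to 337.3 CPM for Scd2. Library 5 was also the highest hCG myometrium library for Adipoq, at 16.7 CPM where the median was 0, and the lowest for the smooth muscle markers, and in yolk sac and fetal liver markers it ranked second while library 6 was lowest (114.1 CPM). The part of other tissue in these 4 genes was not tested.

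**Figure D4:**
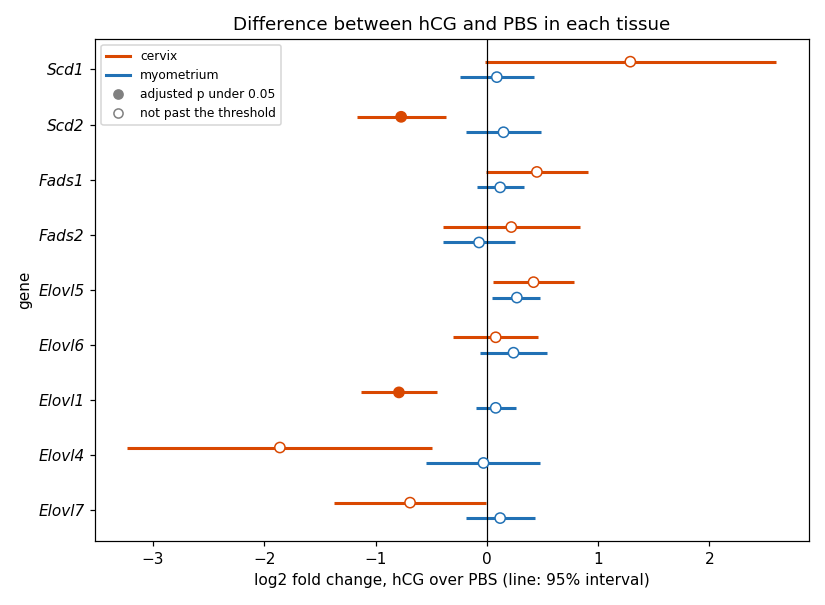
Log2 fold change of hCG over PBS (horizontal axis) for 9 genes in cervix and in myometrium, with the 95% interval as a line and filled points for an adjusted p under 0.05. Elovl1 (-0.79) and Scd2 (-0.77) in cervix are the filled points, and the intervals in myometrium are narrower than those in cervix for every gene.

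Whether cervix and myometrium responded differently was tested as an interaction over all 40 libraries, where a negative value means a lower response in cervix. Elovl1 passed, and it was the only member of 9 to do so, with a difference of -0.88 (SE 0.18, edgeR adjusted p = 0.0392) that ranked 5 among 15624 genes by p. Of all genes 0.352% passed. Scd2 differed by -0.93 (SE 0.256, adjusted p = 0.0627) and passed with DESeq2 (-0.95, adjusted p = 0.0212) and limma voom (-0.89, adjusted p = 0.0365).

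Elovl4 (-1.83, SE 0.75, edgeR adjusted p = 0.165), Elovl7 (-0.83, SE 0.369, adjusted p = 0.199) and Scd1 (1.19, SE 0.671, adjusted p = 0.315) did not pass. The other 4 genes, Elovl5, Elovl6, Fads1 and Fads2, differed by -0.17 to 0.32 (adjusted p of 0.488 to 0.732). The median over the members was -0.17, against 0.028 over all genes.

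The call of Elovl1 was lost in 16 of 40 fits that each left out 1 library. These were cervix hCG 2, 3, 4 and 6, cervix PBS 1, 4, 7, 8 and 10, myometrium hCG 1, 2, 3 and 7 and myometrium PBS 6, 10 and R4. The adjusted p then reached at most 0.069, and the difference stayed between -0.94 and -0.76 over all 40 fits. Without cervix hCG libraries 1, 3 and 5 it was -0.83 (SE 0.202, edgeR adjusted p = 0.0853), and with treatment and number as a block it was -0.83 (SE 0.201, adjusted p = 0.0735).

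The last comparisons set the 2 tissues against each other under 1 treatment. With PBS, 6 of 9 members were higher in cervix and 1 was lower at an edgeR adjusted p under 0.05, where 28.0% of 14545 genes were higher and 26.1% lower. The median log2 difference was 0.56, against 0.04 over all genes. All 7 calls held in each of 20 fits that left out 1 library. With hCG, edgeR called 3 members higher in cervix and 1 lower, against 24.3% and 19.4% of 14974 genes, and the median was 0.06 against 0.066 over all genes. These comparisons use the same libraries as those between treatments.

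The largest gap was that of Elovl4, at 3.98, 18.7 and 105.3 CPM in PBS cervix and 0.527, 1.59 and 3.11 CPM in PBS myometrium, without overlap. It was 19.2-fold higher in cervix (log2 4.26, SE 0.547, edgeR adjusted p = 9.77e-07). With hCG the gap was 5.42-fold (log2 2.44, SE 0.524, adjusted p = 0.000787) and the lowest cervix libraries reached into the myometrium range of 0.835 to 2.98 CPM.

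Scd1 was 4.55-fold higher in cervix with PBS, at 81.6 to 336.7 CPM against 37.3 to 65.7 CPM, again without overlap (log2 2.18, SE 0.224, edgeR adjusted p = 3.8e-08). With hCG it was 10.3-fold higher (log2 3.37, SE 0.667, adjusted p = 0.000381), but 3 cervix libraries stood within the range of myometrium, 27.3 to 83.8 CPM. Elovl6, which feeds stearate to the SCD enzymes, was 2.05-fold higher with PBS (50.9 to 99.9 CPM against 26.6 to 41.6 CPM, log2 1.03, SE 0.109, adjusted p = 5.78e-08) and 1.82-fold higher with hCG (log2 0.86, SE 0.208, adjusted p = 0.00202).

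Elovl1 changed sides with treatment. It was 1.47-fold higher in cervix with PBS (log2 0.56, SE 0.149, edgeR adjusted p = 0.00333) and lower in cervix with hCG (log2 -0.32, SE 0.101, adjusted p = 0.0148), which was 0.0652 with the label number as a block. The interaction above is the test of that change. With PBS 6 cervix libraries were above every myometrium library, and with hCG 6 were below every one. Scd2 was 1.42-fold higher in cervix with PBS (log2 0.50, SE 0.176, adjusted p = 0.02) and stood at log2 -0.43 with hCG (SE 0.183, adjusted p = 0.062). Elovl7 was 2.20-fold higher with PBS (log2 1.14, SE 0.209, adjusted p = 8.94e-05) and stood at log2 0.32 with hCG (SE 0.293, adjusted p = 0.391).

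Of the polyunsaturated route 1 enzyme was called, and it was lower in cervix. Fads1 was the member lower in cervix with PBS, at 24.6 to 63.6 CPM against 63.8 to 95.9 CPM in myometrium, with no overlap (log2 -0.77, SE 0.154, edgeR adjusted p = 0.000204). With hCG its difference was -0.46 (SE 0.188, adjusted p = 0.0547), and -0.82 without cervix hCG libraries 1, 3 and 5 (adjusted p = 6.61e-05, an alternative added after the data were seen). Libraries 5 and 1 held the highest cervix hCG values of Fads1, so leaving them out widens this gap by construction. Elovl5 differed by -0.27 with PBS (SE 0.137, adjusted p = 0.0982) and -0.12 with hCG (SE 0.152, adjusted p = 0.543). Fads2 differed by -0.22 (SE 0.18, adjusted p = 0.313) and 0.06 (SE 0.284, adjusted p = 0.886).

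With PBS all 14 squamous markers were higher in cervix and all 9 smooth muscle markers lower, as were all 6 macrophage and all 5 endothelium markers. All 5 yolk sac and fetal liver markers tested were also lower, with a median log2 difference of -6.07. In myometrium, PBS libraries 4, 8 and R3 were highest in these markers and in Scd2 (890.1, 782.4 and 724.3 CPM). So were hCG libraries 5 and 10 (963.5 and 923.4 CPM), but hCG library 8 had 720.2 CPM of Scd2 at a marker level of 137.3 CPM. Of 8 adipocyte markers tested 5 were higher and 1 lower. Krt5 was at most 1.78 CPM in any myometrium library. The part of these cell types, and of yolk sac RNA, in the differences between the tissues was not tested.

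The order of the groups differed by gene. Elovl1 ran from cervix PBS (68.6 CPM) through myometrium hCG (49.9) and myometrium PBS (47.1), which did not differ beyond their SD, to cervix hCG (39.6). For Scd2 the order was the same, 863.0, 684.1, 616.0 and 502.1 CPM. By mean, Elovl4 and Elovl7 were highest in cervix PBS, then cervix hCG, with both myometrium groups lowest and close together (1.68 and 1.66 CPM for Elovl4, 21.1 and 19.5 CPM for Elovl7). Cervix hCG stood at 8.94 ± 11.7 CPM for Elovl4 and 26.0 ± 16.1 CPM for Elovl7. It differed from its neighbours by less than the larger SD for both genes. The edgeR test between tissues with hCG, given above, passed for Elovl4 and not for Elovl7. For Fads1 both myometrium groups came first (89.2 and 82.0 CPM), then cervix hCG (64.4) and cervix PBS (47.7). For Elovl5 the order was myometrium hCG (195.8 CPM), cervix hCG (178.0), myometrium PBS (162.7) and cervix PBS (134.0), with neighbours closer than the larger of their SDs.

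Other genes of lipid metabolism gave context for the enzymes, beginning with what feeds them. The list counts below stand beside these shares of all genes tested. With hCG in cervix 8.91% passed, 4.17% as lower. Between tissues 28.0% were higher and 26.1% lower in cervix with PBS, and 24.3% and 19.4% with hCG. No list was tested as a set, and several counts are near these shares. Of 10 fatty acid synthesis genes 0 passed edgeR's test in cervix (3 at an unadjusted p under 0.05), with a median log2 difference of 0.08. With PBS 6 of the 10 were higher in cervix than in myometrium and 1 was lower. Among the higher were Acaca, the carboxylase that makes malonyl-CoA (log2 1.06, SE 0.105), and Acly, which makes cytosolic acetyl-CoA (log2 1.05, SE 0.124). With hCG 6 were higher and none lower.

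Of 14 regulators of lipid synthesis 2 were higher and 2 lower with hCG in cervix. Srebf2, the main transcription factor of cholesterol synthesis genes, fell by 0.99 on the log2 scale (SE 0.224, edgeR adjusted p = 0.0275). Mlx, a partner of the carbohydrate response factor, fell by 0.56 (SE 0.159, adjusted p = 0.0366). Pparg, the master regulator of fat cells, rose 4.77-fold (log2 2.25, SE 0.62, adjusted p = 0.0342), and Ppara, named after its value was seen, rose 2.27-fold (log2 1.18, SE 0.339, adjusted p = 0.0376).

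Without hCG libraries 1, 3 and 5, in the fit where no gene passed, these 4 differences were -0.91, -0.50, 0.24 and 0.56. The difference of Pparg was then smaller than its SE of 0.32. Those 3 libraries were the highest of cervix in adipocyte markers, with values given above. A smaller difference of a fat cell gene without them follows from that choice, so this fit cannot test the part of fat RNA. Between tissues with PBS, 6 of 13 regulators tested were higher in cervix and 2 lower, with Mlx at log2 0.99 (SE 0.146) and Scap, which escorts the sterol-responsive factors, at 0.85 (SE 0.137). With hCG 5 were higher and none lower.

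Of the 6 partner enzymes of the elongation cycle Hacd4, a dehydratase, was higher with hCG in cervix (log2 0.63, SE 0.177, edgeR adjusted p = 0.036, and 0.52 without hCG libraries 1, 3 and 5) and none was lower. With PBS 3 of 6 were higher in cervix and 2 lower, with Hacd2 at log2 0.83 (SE 0.083) and Hacd4 at -0.93 (SE 0.15). Of the 6 electron donors of desaturases 0 passed with hCG in cervix (2 at an unadjusted p under 0.05), and neither did any of the 7 other elongases and desaturases (0 at an unadjusted p under 0.05). Of 5 electron donors tested with PBS 1 was higher in cervix and 3 lower, with Cyb5b at log2 0.45 (SE 0.0808) and Cyb5a, the cytochrome that hands electrons to desaturases, at -0.53 (SE 0.132). With PBS 5 of the 7 other elongases and desaturases were lower in cervix and 1 higher. Among the lower were the ceramide desaturases Degs2 (log2 -2.34, SE 0.325) and Degs1 (log2 -1.09, SE 0.158).

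Among 18 genes of barrier ceramides, the lipids that hold the longest chains of Elovl4, 16 were tested in cervix, 4 were lower with hCG and none was higher. Cyp4f39, which hydroxylates the tail of ultra-long fatty acids, fell by 2.34 on the log2 scale (SE 0.553, edgeR adjusted p = 0.028). Pnpla1, which makes acylceramide, fell by 2.02 (SE 0.566, adjusted p = 0.0359). The transporter Abca12, named after its value was seen, fell by 1.98 (SE 0.582, adjusted p = 0.0404). Without hCG libraries 1, 3 and 5 the differences of these 3 genes were -2.23, -2.80 and -2.37, with an edgeR adjusted p of 0.0789 to 0.0864. The lower squamous marker levels given above stood in the same libraries, and their part here was not tested.

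With PBS 9 of the 16 ceramide genes tested were higher in cervix than in myometrium and 6 lower. Cyp4f39 led the higher ones (log2 8.37, SE 0.614), and the ceramide synthase Cers6 led the lower ones (log2 -1.59, SE 0.134). With hCG 4 of 15 were higher and 7 lower.

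Of 16 acyl-CoA synthetase and fatty acid uptake genes 15 were tested in cervix, and 3 were lower with hCG and 1 higher. Fabp5, the fatty acid binding protein of epidermis, fell by 2.36 on the log2 scale (SE 0.58, edgeR adjusted p = 0.0293). The synthetase Acsbg1 fell by 1.80 (SE 0.483, adjusted p = 0.0332) and the epidermal transporter Slc27a4 by 1.0 (SE 0.268, adjusted p = 0.0332). Fabp4, the binding protein of adipocytes, named after its value was seen, rose 5.72-fold (log2 2.52, SE 0.767, adjusted p = 0.0453). Without hCG libraries 1, 3 and 5 the first 3 differed by -2.67, -1.76 and -0.96, and Fabp4 by 0.57 (SE 0.593). For Fabp4 a smaller difference follows from leaving out the libraries highest in adipocyte markers. With PBS 7 of 15 were higher in cervix than in myometrium and 3 lower, with Acsl4, a synthetase that prefers arachidonate, at log2 -1.51 (SE 0.115) and Acsbg1 at 6.01 (SE 0.568).

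Of 13 glycerolipid synthesis genes Lpin1, a phosphatidate phosphatase, was higher with hCG in cervix (log2 1.19, SE 0.296, edgeR adjusted p = 0.0298, and 0.46 without those 3 libraries) and none was lower. With PBS 2 of 13 were higher in cervix and 7 lower, among them Agpat4 (log2 -0.83, SE 0.161) and Gpat3 (log2 -0.48, SE 0.105), which add acyl chains to the glycerol backbone. In myometrium none of these 8 lists had a gene past the threshold in edgeR, with 0 to 5 genes per list at an unadjusted p under 0.05. In the interaction 2 genes of these lists passed, 1 of the ceramide list and Acsbg1 (log2 -4.77, SE 1.14, edgeR adjusted p = 0.0497). Acsbg1 was below the filter on low counts in myometrium alone and differed by -1.80 in cervix alone. The size of -4.77 also uses those low myometrium counts, and their part in it was not tested.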

How the data were processed

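RNA was sequenced from 40 libraries, and the values deposited by the authors are raw counts for each gene and library. Per the labels' protocols, a stranded kit for total RNA was used. TopHat2 and GRCm38 (mm10) are named per the submitters' processing notes, with roles and versions unstated. What counted the reads, on which annotation and strand, is not given in the sources used here. Of 23079 identifiers 23008 matched a RefSeq table of GRCm38.p6, and the 71 others (0.197% of counts) were kept.

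Counts were filtered with filterByExpr and scaled by TMM factors (0.852 to 1.23 over the 40 libraries). They were tested across all genes with edgeR 4.0.16 (quasi-likelihood, robust, R 4.3.3) and Benjamini-Hochberg adjustment. Each fit used only the groups compared. Each SE was derived from the log2 fold change and its F statistic. Levels are CPM after TMM, and levels per kilobase used GENCODE M21 exon lengths. The fit was tested on simulated data. Alternatives used DESeq2 1.42.0, limma 3.58.1 and sva 3.50.0.

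The smallest chi-square per gene between libraries of a group was 9.03, so none was counted as a duplicate. The genes and lists were chosen with earlier results of these data known. All 10 members are named. From each list up to 3 called genes with the smallest p are named per hCG comparison and up to 2 per tissue comparison. Results for 1 gene of these lists are counted but not reported here by name.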

Additional observations from a re-analysis of the deposited data

Results flagged for a closer look

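Of 40 groups of 10 libraries, 1 per gene, tissue and treatment, 7 held a library far from the others, each at the high end. The cutoff flags about 1 in 20 groups of normally distributed values, a rate that need not hold for levels in CPM. In cervix with hCG, library 5 stood at 134.4 CPM for Fads1 (next library 84.3 CPM) and at 88.1 CPM for Fads2 (next 33.4 CPM), and library 1 stood at 38.9 CPM for Elovl4 (next 19.1 CPM). In cervix with PBS, library 4 stood at 1.12 CPM for Elovl3, where the other 9 had no count. In myometrium, PBS library 3 stood at 60.3 CPM for Elovl1 (next 50.5 CPM), PBS library 6 at 65.7 CPM for Scd1 (next 50.0 CPM) and hCG library 8 at 2.98 CPM for Elovl4 (next 1.91 CPM). PBS library 6 also had the highest summed adipocyte marker level of that group, 1479 CPM. The fat cell markers Adipoq and Plin1 were nearly absent there, at most 0.352 and 0.05 CPM in any PBS myometrium library. The part of fat RNA in this Scd1 value was not tested.

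The response of Elovl1 to hCG differed between cervix and myometrium by -0.88 on the log2 scale in the interaction test.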

How the results depend on the processing

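Under 18 alternatives other than leaving out 1 library, 448 of 504 gene values kept their direction and their side of the threshold, 12 lost and 16 gained a call, and 28 changed sign, none of them past the threshold in either fit. The counts of members called stayed within 1.5 times in 45 of 56 cases. In cervix (2 members called) the count was 0 with 2 surrogate variables, 0 within the shallower libraries, 0 without hCG libraries 1, 3 and 5, 0 without PBS libraries 5 to 8, 1 within the deeper libraries and 5 with all 40 libraries in 1 fit, and from 0 to 3 with 1 library left out. In the difference of responses (1 called) it was 2 with DESeq2, 2 with limma voom, 2 without the 7 libraries high in Lars2, 0 with the replicate block and 0 without hCG libraries 1, 3 and 5, and from 0 to 2 with 1 library left out. The causes were not tested. The myometrium count was 0 in each alternative run. Leaving out 1 library was not run for the tissues with hCG, and the fit of that comparison without hCG libraries 1, 3 and 5 was added after the data were seen.

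The differences that changed sign were these. For Scd1 the fits without hCG 1, 3 and 5 leave out its highest hCG libraries, which lowers the difference by construction. For hCG in cervix, Scd1 was -0.08 with the replicate block, -0.23 with surrogate variables, -0.52 in the shallower libraries and -0.60 without hCG 1, 3 and 5. Elovl6 was -0.20 with voom, -0.14 with surrogate variables, -0.16 in the shallower libraries, -0.01 with a depth term and -0.24 without hCG 1, 3 and 5. Fads2 was -0.08 with voom, -0.05 with the block, -0.25 with surrogate variables, -0.10 in the shallower libraries and -0.26 without hCG 1, 3 and 5. In myometrium, Elovl4 was 0.06 with surrogate variables and 0.08 without the libraries high in Lars2, and Fads2 was 0.00 with voom and 0.01 without the libraries high in Lars2. Between tissues with hCG, Elovl5 was 0.01 without hCG 1, 3 and 5, and Fads2 was -0.27 with voom, -0.18 with the block and -0.44 without hCG 1, 3 and 5. In the interaction, Elovl5 was -0.06 without the libraries high in Lars2, Fads1 -0.02 without hCG 1, 3 and 5, Fads2 -0.13 with voom and -0.19 without hCG 1, 3 and 5, and Scd1 -0.05 with voom and -0.68 without hCG 1, 3 and 5.

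The labels do not say what a number marks, and not every same-numbered pair correlated above 0.1. Between tissues 5 of 9 PBS pairs did (median r 0.14, highest 0.572; 3 correlated best with their own number) and 3 of 9 hCG pairs (median 0.0593; 3 best). Between treatments 4 of 9 cervix pairs did (2 best) and 3 of 8 myometrium pairs (2 best). With the replicate block 2 members were called in cervix and 0 in the interaction. Counts near the floor limit Elovl3 and, in myometrium, Elovl4.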
